A study of Mus musculus with 19 samples.

Results

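The genes described here are 9 components of the renin-angiotensin, endothelin and prostaglandin systems, Ren1, Agt, Ace, Agtr1a, Edn1, Ednra, Ednrb, Ptgs1 and Ptgs2. They were taken by gene symbol from a table of 54532 genes measured in whole obstructed mouse kidneys, and all 9 had counts. Unilateral ureteral obstruction (UUO), in which the left ureter is tied and cut so that the kidney becomes fibrotic, was performed in male mice of 8 to 9 weeks on a C57BL/6J background, and the kidneys were harvested on day 12 after heparin perfusion. CD5L is a circulating protein made mainly by macrophages, and the mice were wild type (WT) or deficient in it in every cell (CD5L KO). They were injected intraperitoneally every day with recombinant CD5L (rCD5L, 0.5 mg per mouse) or with PBS. There were 5 kidneys of WT mice given PBS, 5 of WT mice given rCD5L, 4 of CD5L KO mice given PBS and 5 of CD5L KO mice given rCD5L. All 19 kidneys were obstructed, so the values compare groups within obstruction and say nothing of a healthy kidney. The genotype and treatment contrasts ask whether loss or supply of CD5L went with different expression of these vasoactive genes.

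In the renin-angiotensin system, renin from juxtaglomerular cells cuts angiotensinogen, angiotensin-converting enzyme makes the active peptide angiotensin II, and its type 1 receptor constricts vessels and drives sodium retention. Endothelin-1 constricts vessels through the A receptor on smooth muscle, while the B receptor on endothelium and collecting duct promotes relaxation, clearance of the peptide and sodium excretion. The cyclooxygenases make the prostaglandin precursor from arachidonic acid, one of them in most tissues and the other on induction, and in the kidney the inducible form is known for its place in the macula densa and interstitium, where its products stimulate renin release.

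In mice given PBS, CD5L KO kidneys had less mRNA of both endothelin receptors, and these were the only 2 of the 9 genes that passed the edgeR test in any comparison, each fit holding only the groups compared. The stretches before their annotated starts are shown because these are the genes that differed together. Each is the 250 bases before the start annotated by RefSeq on GRCm38.p6, read 5′ to 3′ on the gene's own minus strand, from chr8:77724453-77724702 for Ednra and chr14:103843702-103843951 for Ednrb. The Ednrb stretch lies wholly inside the wider span that the count table gives for this gene, and the last 12 bases of the Ednra stretch lie inside the Ednra span. Capitals mark exact matches on either strand to the TATA box TATAAA, the CREB half-site TGACG, the GC box GGGCGG, the CCAAT box or the AP-1 site TGANTCA, so that a CCAAT on the opposite strand reads ATTGG.
Ednra: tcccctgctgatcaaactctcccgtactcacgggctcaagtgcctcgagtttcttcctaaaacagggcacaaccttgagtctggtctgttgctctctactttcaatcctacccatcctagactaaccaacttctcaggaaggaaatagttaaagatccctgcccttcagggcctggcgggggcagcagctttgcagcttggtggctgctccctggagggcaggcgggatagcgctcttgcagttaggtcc
Ednrb: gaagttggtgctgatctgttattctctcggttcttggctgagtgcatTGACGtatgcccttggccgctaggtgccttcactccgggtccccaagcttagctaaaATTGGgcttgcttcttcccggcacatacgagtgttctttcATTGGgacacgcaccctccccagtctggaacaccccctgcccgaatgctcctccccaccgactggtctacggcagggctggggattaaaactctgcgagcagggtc

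The Ednra stretch held none of these letters, and the Ednrb stretch held TGACG once, beginning 203 bases before the start, and CCAAT on the opposite strand beginning 146 and 106 bases before it. Of 32851 promoter stretches of the same length, 17.8% held the CREB half-site, 33.8% the CCAAT box, 12.4% the TATA box, 32.7% the GC box and 6.75% the AP-1 site on either strand. Of the 9 genes, 8 had a stretch in the RefSeq table.

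The total count per kidney lay between 17917491 and 23847090, and each of the 9 genes had at least 36 counts in every kidney. Cd5l had 0 counts in every CD5L KO kidney and 3 to 15 in WT kidneys. A count of 0 allows up to 3 counts, for counting error only. The kidneys are named by group and replicate number. CD5L KO + rCD5L kidneys 3 and 4 stood apart, with FPKM sums (fragments scaled to gene length and library size, over all genes) of 394445 and 479685 against 254753 to 316508 in the other 17 kidneys. Kidney 4 also had 13915 CPM (counts scaled to library size with TMM factors) summed over 8 proximal tubule markers, against 1005 to 2410 elsewhere, and contrasts that include these kidneys were also fitted without them, a choice made after seeing the data. In all 36 within-group pairs, the counts of the kidneys differed beyond sampling noise, so none was treated as a repeat of another.

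On the per-length FPKM scale, Ren1 was the most abundant of the 9 genes in WT kidneys given PBS, at 214 ± 185 FPKM (SD, n = 5). Agt followed at 51.0 ± 6.1 FPKM, Edn1 at 14.9 ± 5.2, Ednrb at 14.0 ± 2.0, Agtr1a at 10.5 ± 1.1, Ptgs1 at 10.02 ± 0.90, Ace at 9.75 ± 1.6, Ednra at 5.91 ± 0.92 and Ptgs2 at 1.56 ± 0.45 FPKM. The lowest Ren1 kidney was above the highest Agt kidney, and the lowest Agt kidney was above the highest Edn1 kidney. The ranges of the neighbours from Edn1 to Ace overlapped, whereas Ace and Ednra, and Ednra and Ptgs2, did not overlap.

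**Figure D1:**
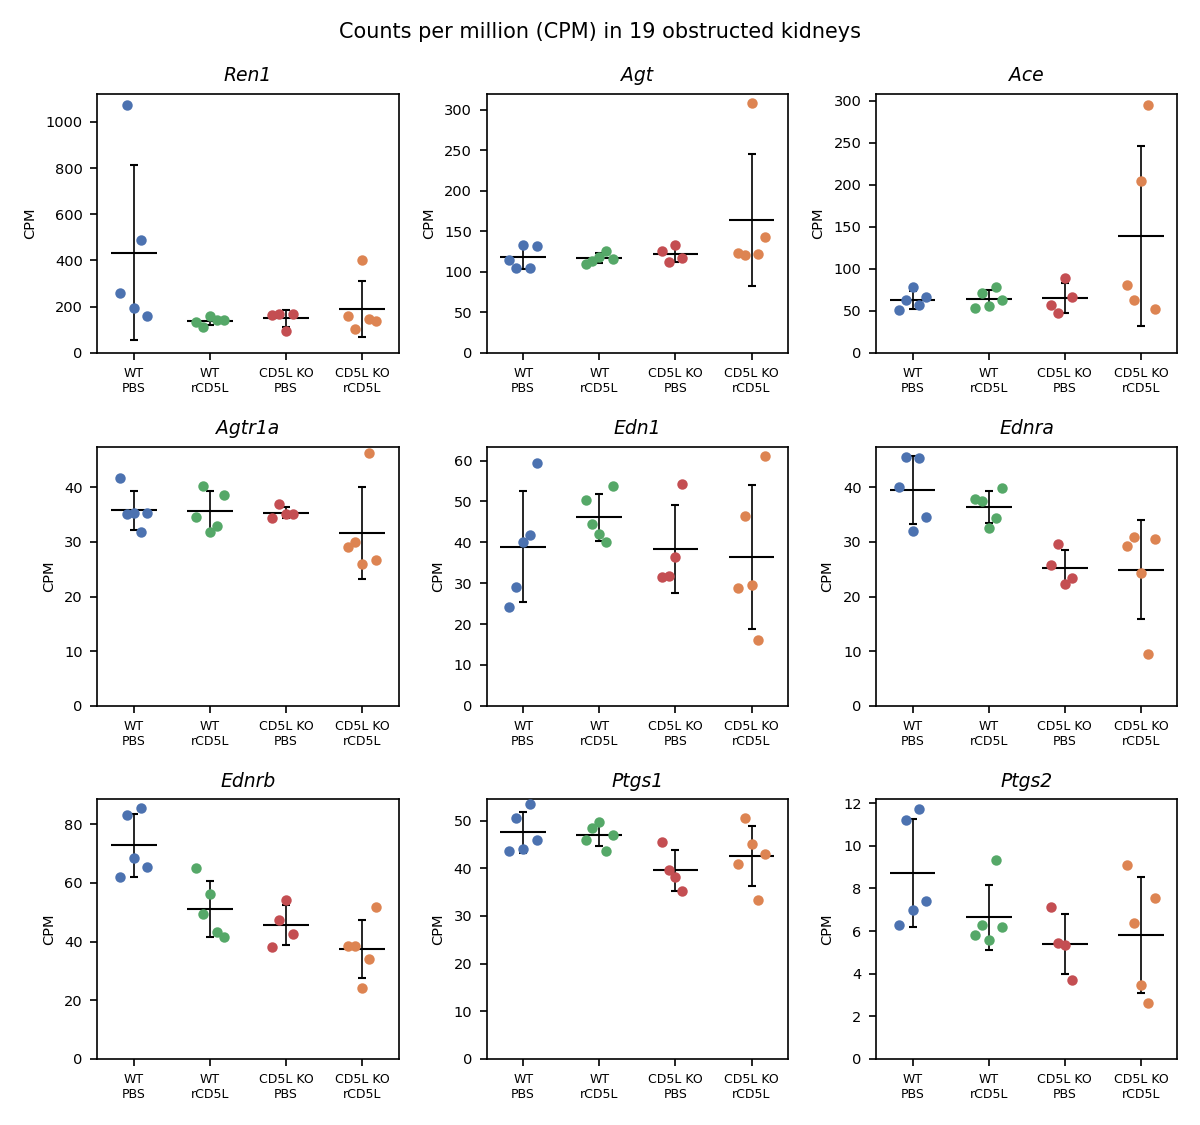
Level of each of the 9 genes in CPM (vertical axis, linear, from 0) in each of the 19 kidneys by group; each point is a kidney, the long line is the group mean and the bar is 1 SD. Ednra and Ednrb sit lower in both CD5L KO groups than in WT kidneys given PBS, and Ren1 is spread widely in WT kidneys given PBS. Agt is high in CD5L KO + rCD5L kidney 3, and Ace is high in kidneys 3 and 4 of that group.

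Ednra, at chr8:77663031-77724464 on the minus strand of GRCm38, encodes the A receptor. In WT kidneys given PBS it measured 40.1, 45.5, 32.0, 45.4 and 34.6 CPM. In CD5L KO kidneys given PBS it measured 25.8, 29.6, 22.3 and 23.5 CPM. Every CD5L KO kidney was below every WT kidney. The log2 fold change was -0.65 ± 0.12 (SE), with an adjusted p of 0.00813 (edgeR, quasi-likelihood test, Benjamini-Hochberg adjustment over 17579 genes).

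Ednrb, at chr14:103814625-103844402 on the minus strand, encodes the B receptor. In WT kidneys given PBS it measured 61.9, 83.0, 68.4, 85.4 and 65.3 CPM. In CD5L KO kidneys given PBS it measured 38.1, 47.5, 54.2 and 42.5 CPM, again with no overlap. The log2 fold change was -0.68 ± 0.12 (SE), with an adjusted p of 0.00666 by edgeR. So 2 of the 9 genes were called, both lower, and the same 2 had groups that did not overlap. Of all genes tested, 10.5% were called in this comparison (5.4% lower), and 6.84% were lower with no overlap. An unadjusted p under 0.05 was reached by 5 of the 9 (Ren1, Ednra, Ednrb, Ptgs1 and Ptgs2), and by 26.6% of all genes. The median log2 fold change of the 9 genes was -0.27, beside -0.0046 for all genes tested. Ednrb also had a negative estimate for rCD5L against PBS in WT mice, -0.49 (log2) by edgeR, called by DESeq2 but not by edgeR. It measured 41.5 to 65.0 CPM with rCD5L there, overlapping the 61.9 to 85.4 CPM with PBS. Ednra gave -0.10 in that comparison. The WT kidneys given PBS enter both comparisons, so the Ednrb estimates are not independent of each other.

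Both calls held when each kidney was left out in turn, with adjusted p between 0.00456 and 0.0238 for Ednra and between 0.00628 and 0.0213 for Ednrb by edgeR. With all 19 kidneys in the fit, neither was called, with adjusted p of 0.23 and 0.114 by edgeR and 12 genes called in all. The biological coefficient of variation was 12.6% among the PBS kidneys and 28.8% in the fit of the CD5L KO kidneys given rCD5L or PBS. Fold changes also fell with gene length across all genes (Spearman rho -0.28), and with an offset for length both receptors stayed called, at -0.61 and -0.66.

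Most markers of vessel and stromal cells had negative estimates in the same CD5L KO kidneys. Of 8 endothelial markers, all had negative estimates and 4 were called lower (Pecam1, Cdh5, Flt1 and Plvap). The summed level of the 8 was 671 to 755 CPM in CD5L KO kidneys against 808 to 902 CPM in WT kidneys given PBS. Of 9 smooth muscle and pericyte markers, all had negative estimates and 4 were called lower (Acta2, Notch3, Cspg4 and Pdgfrb), with sums of 752 to 1060 against 967 to 1419 CPM. Of 6 fibroblast markers, 4 were called lower (Col1a1, Col1a2, Col3a1 and Pdgfra), with sums of 2743 to 3745 against 3925 to 6044 CPM. The other 2, Dcn and Lum, gave 0.05 ± 0.14 and 0.10 ± 0.25 (log2, SE), with adjusted p of 0.865 and 0.832 by edgeR. Of all genes tested, 5.4% were called lower in this comparison. No marker of these 3 lists was at 0 in any kidney. Their part in the receptor result was not tested, and in whole kidneys fewer cells of a type and less RNA per cell cannot be told apart.

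**Figure D2:**
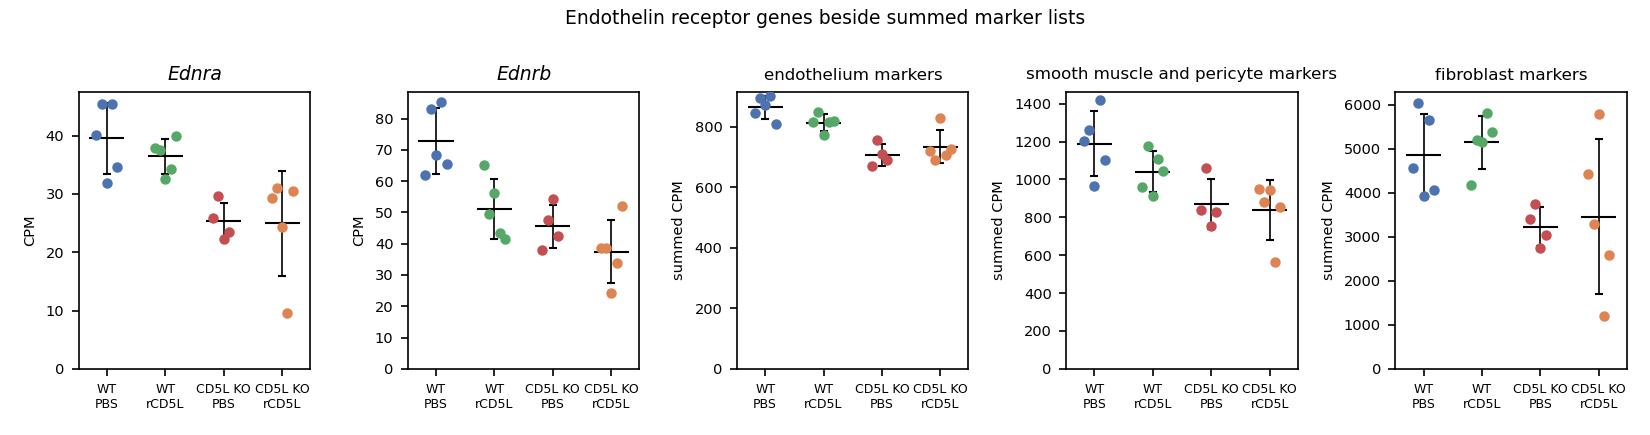
Ednra and Ednrb in CPM and the summed CPM of the endothelium, smooth muscle and pericyte, and fibroblast marker lists (vertical axes, linear, from 0) in the 19 kidneys by group; points are kidneys, long lines group means and bars 1 SD. Among the PBS kidneys, both receptors and the endothelial and fibroblast sums do not overlap between CD5L KO and WT, and the smooth muscle and pericyte sums do.

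The other markers gave fewer calls in mice given PBS. Of 5 podocyte markers, Wt1 was called lower, and of 6 macrophage markers, Csf1r was called lower. None was called among the juxtaglomerular, macula densa, proximal tubule, thick ascending limb, collecting duct, urothelium, epididymis or adrenal cortex markers. All 5 urothelium markers had positive estimates, with a median log2 fold change of 0.79, and their summed level was 156 to 271 CPM in CD5L KO against 20.2 to 151 CPM in WT kidneys, with no overlap. The part of that in the receptor result was not tested.

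The kidneys given rCD5L are a separate set of animals, in which the CD5L KO mice also received CD5L protein. Their genotype contrast is therefore not one of absence against presence of the protein, as it is with PBS. Ednra measured 37.8, 37.6, 32.6, 34.3 and 39.9 CPM in WT and 29.3, 31.0, 24.4, 9.53 and 30.5 CPM in CD5L KO kidneys, with no overlap and the lowest value in kidney 4. Its log2 fold change was -0.55 ± 0.25 (SE), with an adjusted p of 0.274 by edgeR, and it was -0.28 ± 0.075 with an adjusted p of 0.0585 without CD5L KO + rCD5L kidneys 3 and 4. Ednrb measured 65.0, 49.5, 56.3, 43.3 and 41.5 CPM in WT and 38.6, 38.6, 24.2, 33.9 and 51.9 CPM in CD5L KO kidneys, which overlapped. Its log2 fold change was -0.45 ± 0.19 (SE), with an adjusted p of 0.267 by edgeR, and -0.26 ± 0.14 with an adjusted p of 0.32 without those kidneys.

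No gene was called in the main edgeR fit of that comparison, 0 of 17360, while 17.8% had an unadjusted p under 0.05 and DESeq2 called 150. By edgeR, 644 genes were called without CD5L KO + rCD5L kidneys 3 and 4, and 1291 with all 19 kidneys in 1 fit. None of the 9 was among them in either fit. Of the 9 genes, 3 had an unadjusted p under 0.05 (Ace, Ednra and Ednrb), and without CD5L KO + rCD5L kidneys 3 and 4 there were 2 (Agtr1a and Ednra), where 21.5% of all genes had one. One gene of the 9, Ednra, had groups that did not overlap, where 3.09% of all genes were lower with no overlap. No test of the difference between the contrasts passed: the interaction of genotype and rCD5L was 0.11 ± 0.30 for Ednra and 0.24 ± 0.24 for Ednrb on the log2 scale, with adjusted p of 0.936 and 0.819 by edgeR. Without CD5L KO + rCD5L kidneys 3 and 4 it was 0.37 ± 0.15 for Ednra and 0.42 ± 0.20 for Ednrb, with unadjusted p of 0.0247 and 0.0499 and an adjusted p of 0.965 for each by edgeR.

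Edn1, at chr13:42301476-42307990 on the plus strand, encodes endothelin-1, the ligand of both receptors. It measured 24.1, 29.1, 40.1, 41.9 and 59.3 CPM in WT kidneys given PBS and 31.5, 31.6, 36.4 and 54.1 CPM in CD5L KO kidneys given PBS. The spread within each group was far wider than the difference of -0.03 ± 0.23 (log2, SE), which had an adjusted p of 0.96 by edgeR. With rCD5L, Edn1 measured 40.0 to 53.8 CPM in WT and 16.05 to 61.2 CPM in CD5L KO kidneys, a log2 difference of -0.35 with CD5L KO + rCD5L kidneys 3 and 4 and -0.031 without them. Of the other endothelin genes, Ece1, which encodes the enzyme that cuts the endothelin precursor, gave -0.22 ± 0.070 in CD5L KO kidneys given PBS, with an adjusted p of 0.0689 by edgeR. Edn3 was tested and not called. All 5 endothelin genes tested with PBS had negative estimates. Edn2 and Ece2 were too low to be tested.

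**Figure D3:**
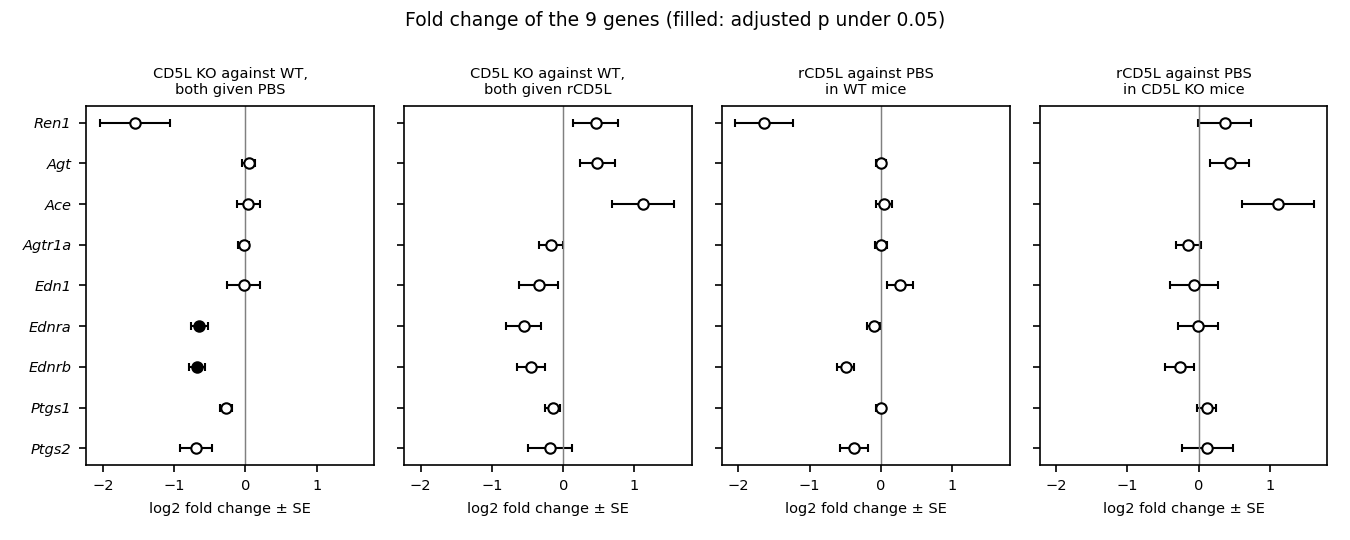
Log2 fold change (horizontal axis) of the 9 genes in 4 comparisons by edgeR; points are estimates, bars 1 SE, and filled points have an adjusted p under 0.05. Only Ednra and Ednrb in CD5L KO against WT with PBS are filled; Ren1 has the lowest estimate in the 2 comparisons that contain WT kidneys given PBS.

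Ren1, at chr1:133350510-133360325 on the plus strand, encodes renin. In WT kidneys given PBS it measured 258, 1072, 194, 487 and 160 CPM. Kidneys 2 and 4 of this group were above every kidney of the other groups. In WT kidneys given rCD5L it measured 134, 114, 158, 141 and 140 CPM, every one below the lowest PBS kidney. In WT mice the log2 fold change with rCD5L was -1.64 ± 0.41 (SE), with an unadjusted p of 0.00127 and an adjusted p of 0.115 by edgeR, so it did not pass. It was -0.99 ± 0.25 without WT + PBS kidney 2, at 1072 CPM. DESeq2 and edgeR without a filter on low counts gave adjusted p of 0.037 and 0.0201.

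In CD5L KO mice, Ren1 measured 166, 166, 94.8 and 168 CPM with PBS and 158, 102, 402, 148 and 138 CPM with rCD5L. CD5L KO against WT with PBS gave -1.55 ± 0.49, with an adjusted p of 0.0624 by edgeR. DESeq2 gave an adjusted p of 0.0488, and edgeR gave 0.0154 without a filter on low counts and 0.00974 with the replicate number as a block. It was not called under RLE factors, the stricter filter, limma on FPKM, the length offset or with all 19 kidneys. The log2 fold change was -0.90 ± 0.31 without WT + PBS kidney 2. The adjusted p by edgeR was 0.0314 without kidney 3 and 0.0397 without kidney 5 of WT + PBS, the kidneys with the lowest Ren1. These contrasts both use the WT kidneys given PBS, so the wide group enters both. The interaction of genotype and rCD5L was 2.03 ± 0.64 on the log2 scale, with an unadjusted p of 0.00473 and an adjusted p of 0.731 by edgeR. Without CD5L KO + rCD5L kidneys 3 and 4 it was 1.49 ± 0.57, with an unadjusted p of 0.0172 and an adjusted p of 0.965 by edgeR.

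In WT mice no gene was called for rCD5L against PBS by edgeR, 0 of 17455, while 16% had an unadjusted p under 0.05 and DESeq2 called 542. Of the 9 genes, 2 had an unadjusted p under 0.05, Ren1 and Ednrb, and Ren1 alone had no overlap, where 2.11% of all genes were lower with no overlap. Ednrb gave -0.49 ± 0.12 (log2, SE), with an adjusted p of 0.113 by edgeR and 0.00973 by DESeq2. As for Ren1, this contrast shares its PBS group with the genotype contrast of Ednrb described above. The median of the 9 genes was -0.0024, beside 0.0046 for all genes.

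Akr1b7, which is also expressed in juxtaglomerular cells, was the gene whose level varied most like that of Ren1 between kidneys. Pearson's r of log2 CPM was 0.88 over the 19 kidneys after group means were subtracted, and 0.81 to 0.91 when each kidney was left out. Akr1b7 measured 23.1 CPM in the kidney with 1072 CPM of Ren1 and 5.43 to 9.89 CPM in the other WT kidneys given PBS. The other juxtaglomerular markers in the list, Gja5 and Crip1, gave -0.41 ± 0.17 and 0.22 ± 0.13 in CD5L KO against WT with PBS, with adjusted p of 0.144 and 0.327 by edgeR. The list also contains Ren1 itself. With the sum of the other markers of this list, Ren1 had r 0.48 (0.40 to 0.63 leaving out each kidney). It was 0.60 with the endothelium sum (0.45 to 0.64) and 0.52 with the fibroblast sum (0.37 to 0.69).

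Agt, at chr8:124556534-124569706 on the minus strand, encodes angiotensinogen. Apart from CD5L KO + rCD5L kidney 3, at 308 CPM, the other 18 kidneys lay between 104 and 143 CPM. CD5L KO against WT with PBS gave 0.04 ± 0.086, with an adjusted p of 0.793 by edgeR. Between the groups given rCD5L the value was 0.48 ± 0.24 with that kidney and 0.14 ± 0.070 without kidneys 3 and 4, with adjusted p of 0.314 and 0.279 by edgeR.

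Ace, at chr11:105967945-105989964 on the plus strand, encodes the enzyme that makes angiotensin II and that sits on endothelium and on the proximal tubule brush border. It measured 80.6, 62.5, 204, 296 and 52.2 CPM in CD5L KO kidneys given rCD5L, and 47.4 to 89.5 CPM in the other 14. Kidneys 3 and 4 were the high ones, and kidney 4 had the highest proximal tubule sum of all kidneys. The log2 fold change was 1.12 ± 0.44 against WT given rCD5L and 1.12 ± 0.51 against CD5L KO given PBS, with adjusted p of 0.259 and 0.897 by edgeR. Without the 2 kidneys the values were 0.01 ± 0.14 and 0.0093 ± 0.20.

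**Figure D4:**
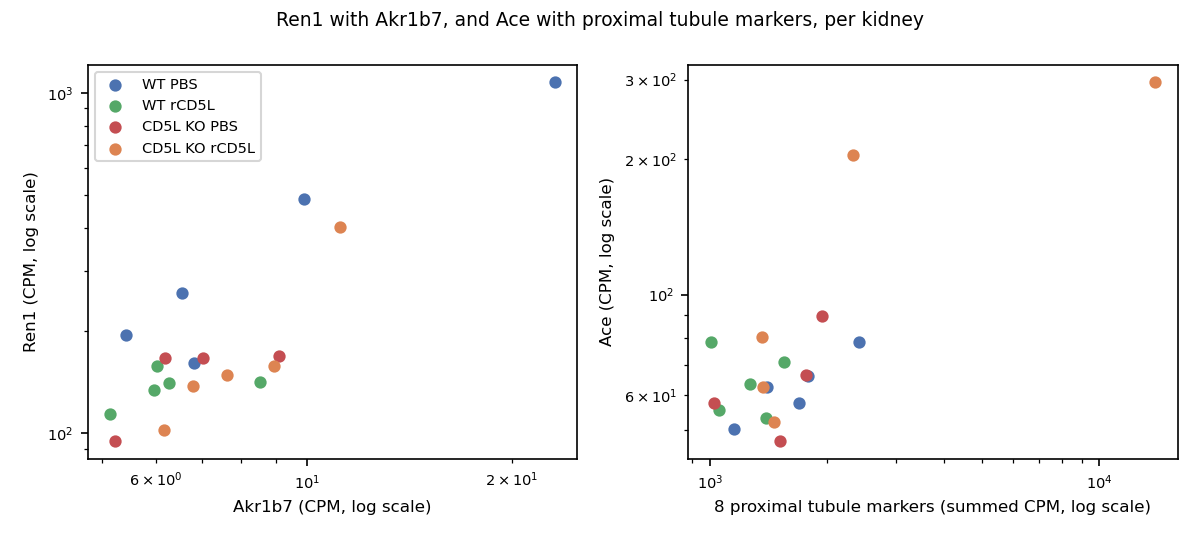
Left, Ren1 against Akr1b7, and right, Ace against the summed level of 8 proximal tubule markers, in CPM on log axes; each point is a kidney, coloured by group. The kidney highest in Ren1 is highest in Akr1b7, and the kidney highest in Ace is highest in the proximal tubule sum, while the kidney with 204 CPM of Ace has 2329 CPM of those markers.

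In CD5L KO mice, rCD5L against PBS gave 0 calls among 17467 genes by edgeR, 2.87% had an unadjusted p under 0.05 and DESeq2 called 10. Each of the 9 genes overlapped between these groups and had an unadjusted p above 0.05, where 2.34% of all genes did not overlap. For the interaction, 0 of 18454 genes were called by edgeR and 6.25% had an unadjusted p under 0.05, among them Ren1 of the 9 genes. Both counts of the 9 genes changed without CD5L KO + rCD5L kidneys 3 and 4, though none of the 9 was called. For rCD5L in CD5L KO mice, 3 then had an unadjusted p under 0.05 by edgeR (Agtr1a, Ednra and Ptgs2), where 9.76% of all genes did. Ednra moved from -0.0083 to 0.26 ± 0.10 (adjusted p = 0.447 by edgeR) and Ptgs2 from 0.12 to 0.51 ± 0.22 (adjusted p = 0.481 by edgeR). For the interaction, 5 did (Ren1, Agtr1a, Ednra, Ednrb and Ptgs2), where 4.96% of all genes did, and Ptgs2 moved from 0.52 to 0.89 ± 0.31 (adjusted p = 0.965 by edgeR).

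Agtr1a, at chr13:30336441-30382867 on the plus strand, encodes the main angiotensin II receptor of the mouse kidney. It lay between 31.8 and 41.6 CPM in every WT kidney and between 34.4 and 36.9 CPM in CD5L KO kidneys given PBS. In CD5L KO kidneys given rCD5L it measured 29.2, 30.1, 25.9, 46.3 and 26.7 CPM, with kidney 4 high. CD5L KO against WT with PBS gave -0.02 ± 0.075, with an adjusted p of 0.877 by edgeR. The log2 fold change between genotypes with rCD5L was -0.17 ± 0.17 with the 2 kidneys and -0.32 ± 0.087 without them, with adjusted p of 0.597 and 0.057 by edgeR. For rCD5L in CD5L KO mice it was -0.14 ± 0.18 and -0.30 ± 0.073, with adjusted p of 0.913 and 0.397 by edgeR, and in the interaction -0.13 ± 0.20 and -0.30 ± 0.12, with adjusted p of 0.88 and 0.965. The second receptor gene of this type in mice, Agtr1b, was too low to be tested, with at most 11 counts in a kidney.

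Ptgs1, at chr2:36230426-36252272 on the plus strand, encodes the constitutive cyclooxygenase. It measured 43.7 to 53.4 CPM in WT and 35.2 to 45.5 CPM in CD5L KO kidneys given PBS, with a log2 fold change of -0.27 ± 0.085 and an adjusted p of 0.0656 by edgeR. Ptgs2, at chr1:150100031-150108227 on the plus strand, encodes the inducible form and was the lowest of the 9. It measured 6.28, 11.2, 7.00, 11.7 and 7.42 CPM in WT and 7.15, 5.43, 5.33 and 3.70 CPM in CD5L KO kidneys given PBS, which overlapped. Its log2 fold change was -0.69 ± 0.23, with an adjusted p of 0.0746 by edgeR and 0.0199 by DESeq2, which also gave 0.0354 for Ptgs1. In WT kidneys given rCD5L, Ptgs2 measured 5.80, 6.29, 5.60, 9.34 and 6.19 CPM, and the change from PBS was -0.38 ± 0.19 with an adjusted p of 0.362 by edgeR.

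Between kidneys of the same group, Ednra varied with Ptgs1 (r 0.72, 0.51 to 0.76 leaving out each kidney) and with Ptgs2 (r 0.70, 0.57 to 0.76), and against Ace (r -0.81, -0.90 to -0.68). Ednra and Ednrb varied less with each other (r 0.25), and Ren1 with Ptgs2 hardly at all (r 0.09). Each r is over the same 19 kidneys, which share library depth and tissue makeup between genes. Among the marker sums, Ednra varied most with the macrophage sum (r 0.94, 0.79 to 0.95 leaving out each kidney), then with smooth muscle and pericyte (r 0.83, 0.72 to 0.85), adrenal cortex (r 0.82, 0.63 to 0.85), podocyte (r 0.79, 0.49 to 0.84) and fibroblast (r 0.76, 0.40 to 0.85). It varied against the proximal tubule (r -0.90, -0.92 to -0.69) and thick ascending limb sums (r -0.82, -0.85 to -0.71). For each of these sums the value nearest 0 came without CD5L KO + rCD5L kidney 4. The Ednrb values with the same sums lay between -0.24 and 0.18. With the endothelium sum r was 0.23 for Ednra (0.13 to 0.35) and -0.18 for Ednrb (-0.25 to 0.25, the highest without CD5L KO + rCD5L kidney 3), and the value of Ednrb farthest from 0 was with the macula densa sum (r 0.43, 0.18 to 0.51, the lowest without that kidney).

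The genes most like each of the others, out of 14323, were also found over the 19 kidneys with group means subtracted. For Ednra they were Cyth3, Sulf1 and Csf3r (r 0.97, 0.96 and 0.96), and for Ednrb Rapgef5, Vmp1 and Tceanc (r 0.86, 0.85 and 0.83). For Ace they included Slc46a1 and Fth1 (r 0.98 and 0.97), and for Agt Hspbp1, Plekhj1 and Plpp2 (r 0.93, 0.93 and 0.93). For Ptgs2 they included Inhba and Wnt7a (r 0.92 and 0.91), and for Ptgs1 Arhgap11a, Mx2 and Nle1 (r 0.85, 0.84 and 0.83). For Edn1 they were Marf1, Carmil1 and Arfgef3 (r 0.87, 0.86 and 0.84), for Agtr1a 1810034E14Rik, Cckar and Slc25a21 (r 0.92, 0.91 and 0.91), and Ren1 was followed after Akr1b7 by Matn4 and Adpgk (r 0.82 and 0.82). These names depend on single kidneys. Of the 19 ways to leave out a kidney, the leading gene stayed the same in 10 (Ptgs1) to 18 (Ren1) and the same 3 genes led in 5 (Edn1) to 15 (Ren1). Without subtraction of group means, at most 2 of the 3 were shared for any of the 9 genes, and 0 for Agtr1a.

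Of the other 48 genes in the lists of these pathways, of kinins and of sodium channels, 41 could be tested in the PBS comparison, and 1 was called higher and 1 lower, where 10.5% of all genes were called. Klk1, which encodes tissue kallikrein, was higher in CD5L KO at 0.73 ± 0.19 (adjusted p = 0.0313 by edgeR), with near-identical Klk1b genes that can share its reads. Ptger1, a prostaglandin E2 receptor gene, was lower at -0.74 ± 0.19 (adjusted p = 0.0285 by edgeR) on 29 to 83 counts. Its counts are uncertain, since the strand setting of the counting is not given and reads of overlapping genes on opposite strands cannot then be told apart. The Klk1 call was lost without CD5L KO + PBS kidney 2 or 4 or WT + PBS kidney 2, 4 or 5, and the Ptger1 call without CD5L KO + PBS kidney 1, 3 or 4 or WT + PBS kidney 2, 4 or 5. Klk1 was also not called with the replicate number as a block, on FPKM by limma at either pseudocount, with the length offset or with all 19 kidneys in the fit, and Ptger1 was not called with the block, without a filter on low counts or with all 19 kidneys. Among the next by p were Ece1, given above, and Ptger4 at -0.22 ± 0.089, with an adjusted p of 0.138 for Ptger4 by edgeR. By list, calls were 0 of 15 tested for renin-angiotensin, 2 lower of 5 for endothelin, 1 lower of 19 for prostaglandin, 1 higher of 5 for kallikrein-kinin and 0 of 6 for mineralocorticoid and sodium channel genes, beside the 5.4% of all genes called lower. The 2 endothelin calls are the receptors already described.

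In the main edgeR fits of the other comparisons none of the 48 was called. The 5 with the smallest p between genotypes with rCD5L were Ptges2 (0.63 ± 0.20), Klk1 (1.81 ± 0.61), Agtrap (0.50 ± 0.17), Ptgfr (0.72 ± 0.31) and Ptges (0.41 ± 0.19), with adjusted p of 0.259 to 0.283 by edgeR. With all 19 kidneys in 1 fit, Ptges2, Klk1 and Agtrap were called here, with adjusted p of 0.039, 0.0418 and 0.0418 by edgeR. Klk1 measured 2118 CPM in CD5L KO + rCD5L kidney 4 and 186 to 412 CPM in the other 4 of the group. Without kidneys 3 and 4 of that group, the 5 values were 0.22 ± 0.074, 0.83 ± 0.19, 0.19 ± 0.074, 0.50 ± 0.14 and 0.20 ± 0.12, and Klk1 was called, with an adjusted p of 0.0386 by edgeR. For rCD5L in WT mice they were Hsd11b2 (0.32 ± 0.13), Enpep (-0.14 ± 0.068), Tbxas1 (0.19 ± 0.098), Klk1 (-0.29 ± 0.16) and Lnpep (0.09 ± 0.049). For rCD5L in CD5L KO mice they were Scnn1a (0.35 ± 0.17), Ptges2 (0.42 ± 0.23), Sgk1 (0.88 ± 0.51), Pla2g4a (-0.33 ± 0.21) and Hpgds (-0.52 ± 0.34), and without kidneys 3 and 4 the 5 values were 0.097 ± 0.090, 0.0026 ± 0.083, 0.21 ± 0.27, -0.091 ± 0.13 and -0.12 ± 0.17. In the interaction they were Ptges2 (0.53 ± 0.24), Sgk1 (1.10 ± 0.53), Agtrap (0.38 ± 0.21), Pla2g4a (-0.40 ± 0.23) and Klk1 (1.09 ± 0.71), and without those kidneys 0.096 ± 0.11, 0.41 ± 0.31, 0.05 ± 0.11, -0.17 ± 0.17 and 0.10 ± 0.31.

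Ace, Edn1, Ednra and Ptgs1 have exons that overlap an annotated gene on the opposite strand, and those partners had at most 24 counts in a kidney.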

How the data were processed

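Bulk RNA-seq of 19 obstructed kidneys was analysed from the gene tables. The authors deposited raw counts per gene. Their libraries were primed with random hexamers and read from both ends. Their processing notes name Trimmomatic, HISAT2 (genome GRCm38), featureCounts and DESeq2. DESeq2 was the study's own test for differential expression and is an alternative here. Versions, the strand setting and the treatment of reads that match several places are not given in the sources used here. FPKM values of the same genes, deposited by the authors, served for levels between genes. The number of sample columns without a sample was 0.

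Groups and replicate numbers came from the sample labels. The test was the quasi-likelihood F-test of edgeR 4.0.16 under R 4.3.3, with TMM factors and the filter of filterByExpr (minimum count 10), over all genes that passed it. Each fit held the 2 groups compared, or all 4 groups for the interaction. Benjamini-Hochberg adjustment ran over all genes tested, and an adjusted p under 0.05 was called. The SE is the absolute log2 fold change divided by the square root of F. CPM values were scaled with TMM factors. Likeness was Pearson's r of log2 CPM (prior count 2) among genes with a mean of at least 1. The test was checked on simulated data with 200 changed genes. Those data had the same spread per gene in every group, so the check does not cover groups that differ in spread.

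Named genes were the 9 genes, any other gene of the 5 pathway lists that was called, the 5 others with the smallest p in each comparison, and the 3 most like each of the 9. Some genes that this rule names are not reported here. The genes and lists were chosen with earlier results of these data known. Alternatives were DESeq2 1.42.0, RLE factors, other filters, the replicate number as a block, limma 3.58.1 on log2 FPKM with a pseudocount of 1 or 0.1, a length offset (lowess span 0.3), all kidneys in 1 fit, and leaving out each kidney. Leaving out CD5L KO + rCD5L kidneys 3 and 4 was chosen after seeing the data. Depth limits low genes most, with Ptgs2 at 36 to 266 counts.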

Additional observations from a re-analysis of the deposited data

Results flagged for a closer look

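The gap of the highest or lowest kidney to the next was set against the range of its group for 36 combinations of gene and group (Dixon's test). Chance would mark about 1 in 20 of them, and 5 were marked. Ren1 was low in CD5L KO + PBS kidney 3, at 94.8 CPM. Ren1 and Agt were high in CD5L KO + rCD5L kidney 3, at 402 and 308 CPM. Agtr1a was high in CD5L KO + rCD5L kidney 4, at 46.3 CPM. Kidneys 3 and 4 of that group are those whose FPKM sums stood apart, and the part of that in these levels was not tested. Ptgs2 was high in WT + rCD5L kidney 4, at 9.34 CPM.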

How the results depend on the processing

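Between genotypes with PBS, the 2 calls among the 9 genes became 5 with DESeq2 (Ren1, Ptgs1 and Ptgs2 added, with all genes called going from 1850 to 2622), 4 without a filter (Ren1 and Ptgs2 added, all genes 1588) and 0 with all 19 kidneys in 1 fit, and stayed Ednra and Ednrb under RLE factors, the stricter filter, both FPKM tests and the length offset. Pathway genes called went from 4 to 9 with DESeq2 and 0 with all 19 kidneys, and all genes called from 1850 to 12 with all 19 kidneys. The cause was not tested. Leaving out each kidney gave 2 to 3 calls among the 9, 2 to 6 among the pathway genes and 1015 to 2062 among all genes (1038 and 1215 without CD5L KO + PBS kidneys 1 and 2, 1121 and 1015 without WT + PBS kidneys 2 and 4).

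Between genotypes with rCD5L, all genes called went from 0 to 150 with DESeq2, 1291 with all 19 kidneys (3 pathway genes, Klk1, Agtrap and Ptges2), 644 without CD5L KO + rCD5L kidneys 3 and 4 (1 pathway gene, Klk1), and 0 to 1 when each kidney was left out. With rCD5L in CD5L KO mice, DESeq2 called 10. With rCD5L in WT mice, DESeq2 called 542 and the fit without a filter 137, each with 2 of the 9 genes (Ren1 and Ednrb), which were also the 2 pathway genes called, and leaving out each kidney gave 0 to 39, the highest without WT + PBS kidney 1.

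The replicate numbers showed no clear pairing of the kidneys. Correlations of same-numbered deviations ran from -0.19 to 0.21 and were never all above 0.1. At most 2 kidneys of a comparison were best matched by their own number. With 4 or 5 pairs per comparison, this check cannot exclude shared handling of same-numbered kidneys. With the replicate block, 3 of the 9 genes (Ren1 at -1.48 added), 5 pathway genes and 2132 of all genes were called between genotypes with PBS, and 0 in each other comparison. The block with a length offset was not run, since no clear pairing was seen.

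Some values changed sign. With the block, Edn1 was 0.18 between genotypes with PBS, Ptgs2 -0.10 with rCD5L in CD5L KO mice, and Agt 0.0049 and Ptgs1 0.00049 with rCD5L in WT mice. With the length offset, Agt was -0.034 between genotypes with PBS and 0.045 with rCD5L in WT mice. For rCD5L in WT mice, Agtr1a was -0.0019 with DESeq2, -0.0019 with RLE factors, -0.0050 without a filter, -0.0011 with at least 10 counts in every kidney and -0.0039 with all 19 kidneys, and limma on FPKM gave Agt 0.0077 and 0.0080 and Ptgs1 0.0015 and 0.0019 at the 2 pseudocounts. Ednra was 0.0013 with all 19 kidneys for rCD5L in CD5L KO mice and -0.019 for the interaction by limma on FPKM with a pseudocount of 0.1, but 0.015 with 1. Without CD5L KO + rCD5L kidneys 3 and 4, Ren1 was -0.063 (0.46 with them) and Ptgs2 0.20 (-0.19) between genotypes with rCD5L, Ren1 -0.16 (0.36), Edn1 0.25 (-0.064) and Ednra 0.26 (-0.0083) with rCD5L in CD5L KO mice, and Ace -0.029 (1.10) in the interaction.

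Leaving out each kidney gave, between genotypes with PBS, -0.15 to 0.17 for Ace, -0.062 to 0.039 for Agtr1a and -0.23 to 0.18 for Edn1, and between genotypes with rCD5L, -0.0038 to 0.61 for Ren1. With rCD5L in CD5L KO mice it gave -0.10 to 0.52 for Ren1, -0.33 to 0.15 for Edn1, -0.10 to 0.20 for Ednra and -0.089 to 0.30 for Ptgs2. With rCD5L in WT mice it gave -0.044 to 0.049 for Agt, -0.038 to 0.14 for Ace, -0.038 to 0.063 for Agtr1a and -0.033 to 0.043 for Ptgs1. Without subtraction of group means, r with its most alike gene was 0.56 for Agtr1a and 0.88 for Ptgs2.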
